A study of Mus musculus with 6 samples.

Results

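Centrosomes and the mitotic spindle poles they form are built by the products of 41 genes described here: those of centriole assembly and inherited microcephaly, the pericentriolar material, the gamma-tubulin ring complex, augmin, and the spindle regulators that act with the motor dynein. Members were chosen by name for these known functions, and all 41 were found on the array. They were among 20145 genes whose symbol could be assigned through a RefSeq or Ensembl accession. They were read by 56 probes, all of which passed the filter on dim signals. The list was drawn up with the differences between the phenobarbital and control arrays already known. These differences are therefore a description of the members, and neither their counts nor their p-values test the list as a whole.

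RNA came from cultured cells labelled as neural progenitor cells of the cerebral neocortex of C57BL/6N mouse embryos. Control dams were injected with saline, and phenobarbital dams with the barbiturate phenobarbital, which enhances GABA-A receptor currents, at 80 mg/kg from a solution of 8 mg/mL, with injections 6 h apart at embryonic days 10 to 11. Embryos were taken at embryonic day 12 per the protocol (E12.5 in the sample labels), and their dissociated cortical cells were plated for 4 h before lysis. Each group holds 3 one-colour arrays, and no source says whether replicates were separate litters or cultures, so the p-values measure only the scatter among these 6 arrays, which could be technical.

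The centrosome is a pair of centrioles within a protein matrix that anchors gamma-tubulin rings, the templates on which microtubules start. Once in each cell cycle the kinase Plk4 starts a new centriole beside each old one, and at mitosis the duplicated centrosomes become the spindle poles. Augmin binds along existing spindle microtubules and recruits further gamma-tubulin rings there, so that microtubules branch. In the developing cortex, radial glia divide at the ventricle. Loss of many of these proteins in humans gives a small but normally layered brain (primary microcephaly), and loss of the dynein regulator Pafah1b1, also called Lis1, gives a smooth cortex (lissencephaly).

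The 75th percentile of the signal ran from 1116 to 1291 on the control arrays and from 1803 to 1862 on the phenobarbital arrays, and each array was scaled to its own. Values are log2 of the scaled signal, so that 0 is the 75th percentile of an array. Control replicate 1 shared slide 1 with all phenobarbital arrays, while control replicates 2 and 3 were on slides of their own. Control replicate 2 stood apart from the other controls over all genes (Pearson's r across genes 0.983 and 0.988, against 0.996 between the others). Across all 25304 names tested, the median log2 difference was -0.16, and rises made up 37.3% of the calls. Rises made up 53.5% of the calls after quantile normalization, 58.4% after scaling to the median, 59.5% when the percentile used only probes detected on every array, and 24.4% with normexp background correction.

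Of the 41 genes, 5 rose with phenobarbital, 1 fell and 35 did not pass (limma, adjusted p below 0.05 over all names tested). Those that rose were Haus7, Tubgcp2, Tubgcp6, Plk4 and Mcph1, and the 1 that fell was Pafah1b1. Among all names tested, 6.24% were called higher and 10.5% lower. The remaining members lay close together. In all, 27 of the 41 had a negative difference, as did 17219 of all 25304 names. A positive difference was found for 34.1% of members and 32.0% of all names. The median over members was -0.14, against -0.16 over all names. The groups did not overlap for 19 members, and for 44.1% of all names.

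**Figure D1:**
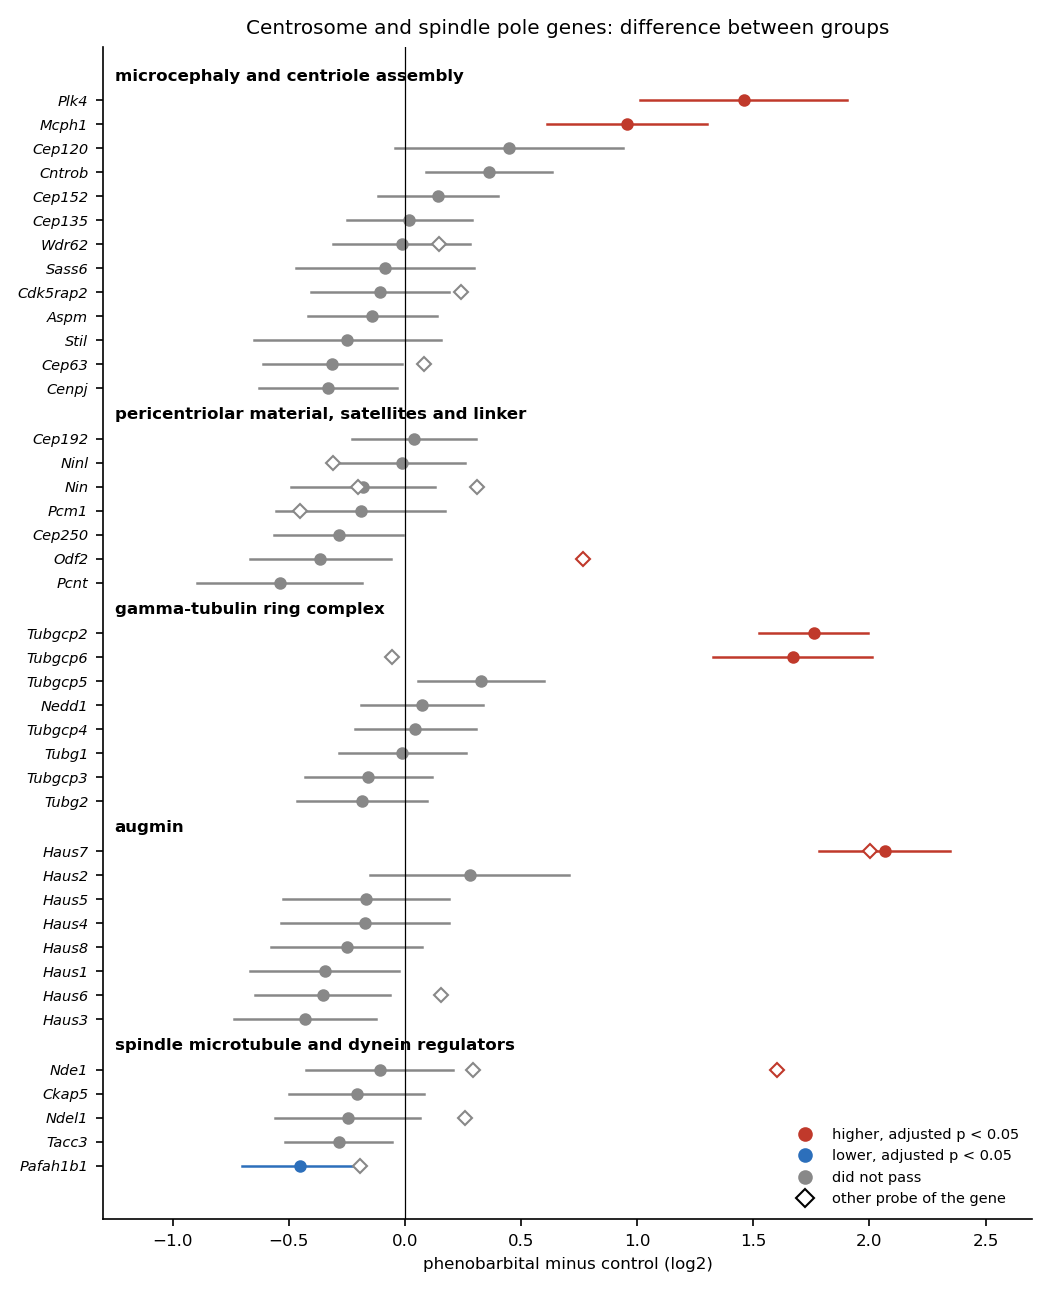
Difference between phenobarbital and control (log2, x axis) for each of the 41 genes, grouped by role. Filled points are the probe with the highest signal with its 95% interval, open diamonds are other probes of the gene, and colour marks the call. Haus7, Tubgcp2, Tubgcp6, Plk4 and Mcph1 stand to the right, from 0.96 to 2.07, while most others lie within 0.5 of 0. Single diamonds of Tubgcp6, Nde1 and Odf2 lie far from their filled points.

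Among the augmin subunits, Haus7 rose and the other 7 did not pass. The signal of Haus7 was -1.71, -1.70 and -1.61 on control arrays 1 to 3 and 0.37, 0.25 and 0.55 on phenobarbital arrays 1 to 3. Every phenobarbital array thus lay far above every control array. The difference was 2.07 ± 0.12 (SE, n = 3 per group), or 4.18-fold (95% interval 3.45 to 5.08), with a limma adjusted p of 0.00199. It was the 82nd largest rise among all names tested. The second Haus7 probe, fitted together with all 34673 probes, rose by 2.00 ± 0.12 (limma, adjusted p = 0.00183). None of its partners in this complex of 8 subunits passed. Haus2 had 0.28 ± 0.18, and the other 6 ran from -0.43 for Haus3 (limma, adjusted p = 0.0649) through Haus6, Haus1, Haus8 and Haus4 to -0.17 for Haus5. The augmin median was -0.21. Of these 7, the groups did not overlap for Haus1, Haus3, Haus6 and Haus8, with phenobarbital lower in each. Over all names, the groups did not overlap for 44.1%.

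In the gamma-tubulin ring complex, Tubgcp2 and Tubgcp6 rose and 6 members did not pass. Tubgcp2, which with Tubgcp3 forms the core unit that holds gamma-tubulin, read -0.58, -0.61 and -0.56 in controls and 1.14, 1.12 and 1.27 with phenobarbital. Replicates differed little within each group (SD 0.029 and 0.080), and the rise was 1.76 ± 0.10, or 3.39-fold (95% interval 2.88 to 3.98), with a limma adjusted p of 0.00199. Tubgcp6, a large subunit found only in the complete ring, read -2.03, -2.26 and -2.25 in controls and -0.64, -0.61 and -0.27 with phenobarbital. Its groups did not overlap and the rise was 1.67 ± 0.14, or 3.18-fold (95% interval 2.51 to 4.04), with a limma adjusted p of 0.00295. That rise rests on the probe with the higher signal. The other Tubgcp6 probe read -3.63, -4.03 and -3.80 in controls against -3.82, -3.89 and -3.93 with phenobarbital. Its groups overlapped, its difference was -0.056 with a 95% interval of -0.37 to 0.26, and the mean of both probes was 0.81.

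None of the other ring genes passed. Gamma-tubulin itself is made from Tubg1, the main form, and Tubg2, a form prominent in brain. Tubg1 had a difference of -0.010 with a 95% interval of -0.28 to 0.26, and Tubg2 of -0.18 with one of -0.46 to 0.09. Tubgcp3, the core partner of Tubgcp2, had -0.16 (-0.43 to 0.12), with groups that did not overlap and phenobarbital lower. Its interval lies wholly below that of Tubgcp2, as do those of Tubg1 and Tubg2. Tubgcp2 was singled out by its call and has 1 probe, so this gap is a description and was not tested. Tubgcp4 had 0.044 ± 0.11, Tubgcp5 had 0.33 ± 0.11 with groups that did not overlap (limma, adjusted p = 0.0924), and Nedd1, the adaptor that brings rings to centrosome and spindle, had 0.075 ± 0.11.

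Of the 13 genes of centriole assembly and microcephaly, Plk4 and Mcph1 rose and 11 did not pass. Plk4 read -2.52, -2.32 and -2.96 in controls and -1.23, -1.22 and -0.98 with phenobarbital. The highest control array was still more than 1 below the lowest phenobarbital array, and the rise was 1.46 ± 0.19, or 2.75-fold (95% interval 2.02 to 3.75), with a limma adjusted p of 0.00809. Mcph1, microcephalin, which times chromosome condensation and takes part in the DNA damage response, read -1.17, -1.54 and -1.42 in controls and -0.45, -0.57 and -0.25 with phenobarbital. It rose by 0.96 ± 0.14, or 1.94-fold (95% interval 1.53 to 2.47), with a limma adjusted p of 0.0127.

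The proteins that work directly with Plk4 did not pass. Stil, which Plk4 phosphorylates, had -0.25 ± 0.17, and Sass6, which builds the cartwheel at the base of the new centriole, had -0.086 ± 0.16. Cep152 and Cep63, which bring Plk4 to the old centriole, had 0.14 ± 0.11 and -0.31 ± 0.12. Further along assembly, the cartwheel protein Cep135 had 0.019 ± 0.11, the elongation factors Cenpj and Cep120 had -0.33 ± 0.12 and 0.45 ± 0.20, and the daughter centriole protein Cntrob had 0.36 ± 0.11 (limma, adjusted p = 0.0731). Aspm and Wdr62, spindle pole proteins whose loss is a common cause of human microcephaly, had -0.14 (95% interval -0.42 to 0.14) and -0.014 (-0.31 to 0.28). Cdk5rap2, which activates gamma-tubulin rings, had -0.11 (-0.40 to 0.19). The interval of Plk4 lies above those of Stil, Sass6, Cep152 and Cep63. Plk4 too was singled out by its call and has 1 probe, so this gap was not tested either.

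**Figure D2:**
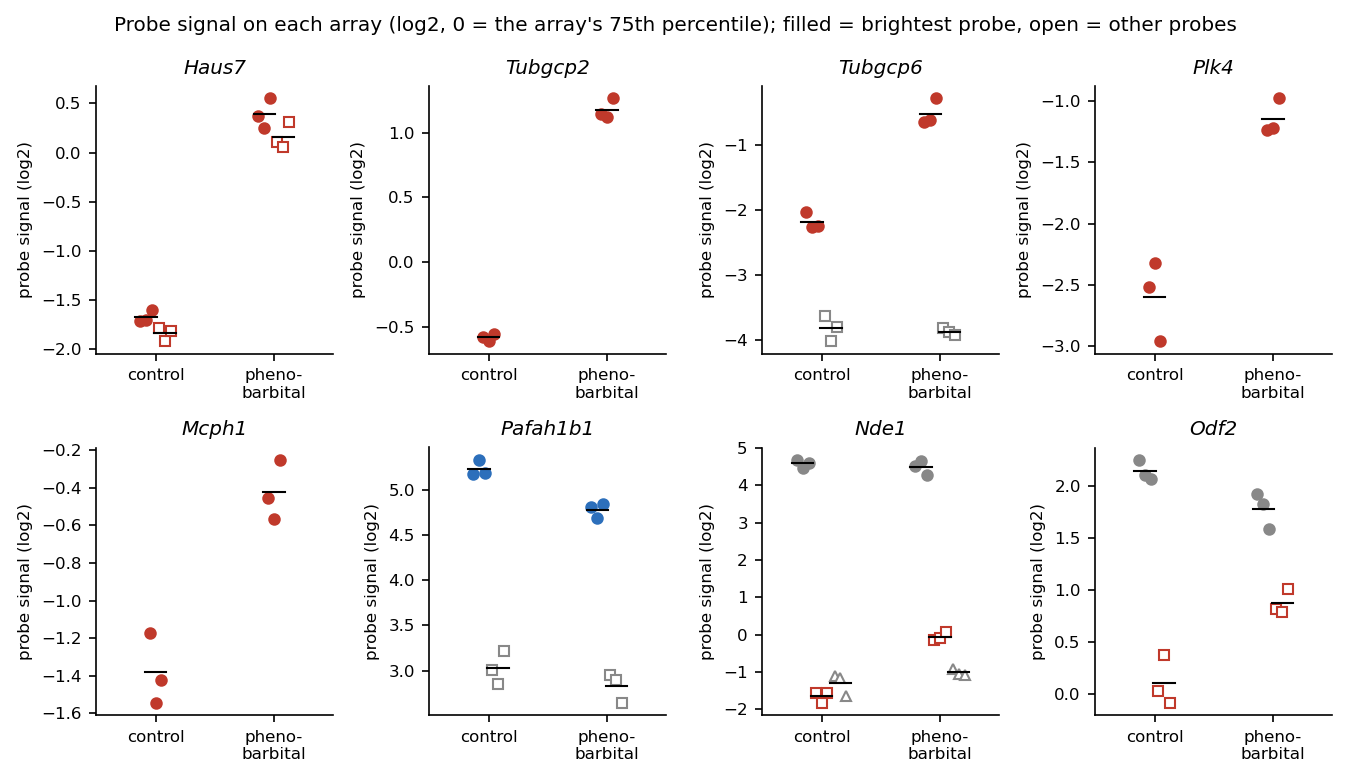
Probe signal (log2, y axis) on each of the 3 control and 3 phenobarbital arrays for 8 genes, with the mean of each group as a bar. Filled points are the probe with the highest signal and open points are other probes of the gene, which are compared between groups and not with each other. Both Haus7 probes step up by about the same amount, while Tubgcp6, Nde1 and Odf2 each have a probe that rose beside 1 or more that did not.

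None of the 7 genes of the pericentriolar material, satellites and linker passed. Pcnt, pericentrin, the scaffold whose loss gives a primordial dwarfism with a small brain, came nearest. It read 3.23, 3.31 and 3.07 in controls and 2.80, 2.80 and 2.41 with phenobarbital, so that the groups did not overlap, with a difference of -0.54 ± 0.15 (limma, adjusted p = 0.0532). Cep192, a scaffold needed for mitotic centrosomes, had 0.040 ± 0.11, and Cep250, which links the pair of centrosomes until mitosis, had -0.29 ± 0.12. The satellite protein Pcm1 had -0.19 ± 0.15, and the anchoring proteins Nin and Ninl had -0.18 ± 0.13 and -0.013 ± 0.11. Dimmer probes of these genes did not pass either, with -0.45 for Pcm1, -0.31 for Ninl, and -0.20 and 0.31 for Nin. Odf2, a protein of the mother centriole's appendages, had -0.36 ± 0.13 on its probe with the highest signal. Of the 7, 6 had a negative difference, where 17219 of all 25304 names had one. However, Ninl turned to 0.031, 0.029 and 0.077 under quantile, median and above-background percentile scaling. Odf2 turned to 0.20 as the mean of its probes.

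Among the 5 spindle and dynein regulators Pafah1b1 fell and 4 did not pass. Pafah1b1, which holds dynein on the microtubule, read 5.17, 5.33 and 5.19 in controls and 4.81, 4.69 and 4.85 with phenobarbital. It fell by 0.45 ± 0.11 on the log2 scale, which is 1.37-fold lower (limma, adjusted p = 0.0374). The second Pafah1b1 probe had -0.19 ± 0.15 and did not pass. The call on the probe with the highest signal ended when any single array was left out (limma, adjusted p from 0.0530 to 0.114). That call also ended under the 3 other scalings of the arrays, with -0.21 after quantile normalization. Ndel1 and Nde1, paralogs that tether Pafah1b1 to dynein, had -0.25 ± 0.13 and -0.11 ± 0.13. Tacc3 and Ckap5, which together stabilise spindle fibres, had -0.29 ± 0.10 and -0.21 ± 0.12. All 5 had a negative difference, where 17219 of all 25304 names had one. As the mean of its probes, however, Nde1 was called higher at 0.60 (limma, adjusted p = 0.0179) and Ndel1 turned to 0.0055. Nde1 also turned to 0.065 after quantile normalization.

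The 56 probes gave the same picture with additions. When each was tested on its own, 8 were higher and 1 lower, where 6.97% and 8.74% of all probes tested were. The additions were single probes of Nde1 and Odf2. The array reads Nde1 with 3 probes. The probe with the highest signal, designed on another RefSeq transcript than the other 2, had -0.11 (95% interval -0.43 to 0.21). Of the other 2 probes, which share 1 transcript, one read -1.58, -1.83 and -1.56 in controls and -0.13, -0.081 and 0.058 with phenobarbital, a rise of 1.60 ± 0.12 (limma, adjusted p = 0.00226). The other had 0.29 ± 0.17 (limma, adjusted p = 0.258). For Odf2, whose 2 probes were also designed on different transcripts, the dimmer probe read 0.027, 0.38 and -0.085 in controls and 0.82, 0.79 and 1.01 with phenobarbital. It rose by 0.77 ± 0.15 (limma, adjusted p = 0.0266), and its interval of 0.40 to 1.14 does not meet that of the other Odf2 probe, -0.67 to -0.06. The Odf2 call held without control replicate 2 and ended when any other single array was left out (limma, adjusted p from 0.0675 to 0.0925). It also ended without the filter on dim probes (0.0670) and with the slide as a block (0.0785).

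Agreement between probes could be read for the 13 members with more than 1 probe. Probes of a gene differed by over 1 on the log2 scale for 3 of the 13, Nde1, Odf2 and Tubgcp6, and for 17.2% of the 3980 genes on the array with several tested probes. For the other 10 the probes lay within 0.51 of each other. They lay within 0.065 for Haus7 and within 0.16 for Wdr62, followed by Pafah1b1, Pcm1, Ninl, Cdk5rap2 and Cep63, then Ndel1, Nin and Haus6. Even so, the sign depended on the probe for Wdr62, Cdk5rap2, Cep63, Ndel1, Nin and Haus6. Ndel1, for example, had -0.25 and 0.26, and Haus6 -0.35 and 0.16. The sign was the same on all probes for Haus7, Pafah1b1, Pcm1 and Ninl. Over the whole array, 429 genes with several tested probes had a probe that rose by more than 1, and every tested probe was called higher for 51 of them, or 11.9%. Haus7 is one of these 51, and Nde1 and Tubgcp6 are not. Tubgcp2, Plk4 and Mcph1 have 1 probe each, so agreement could not be read for them.

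**Figure D3:**
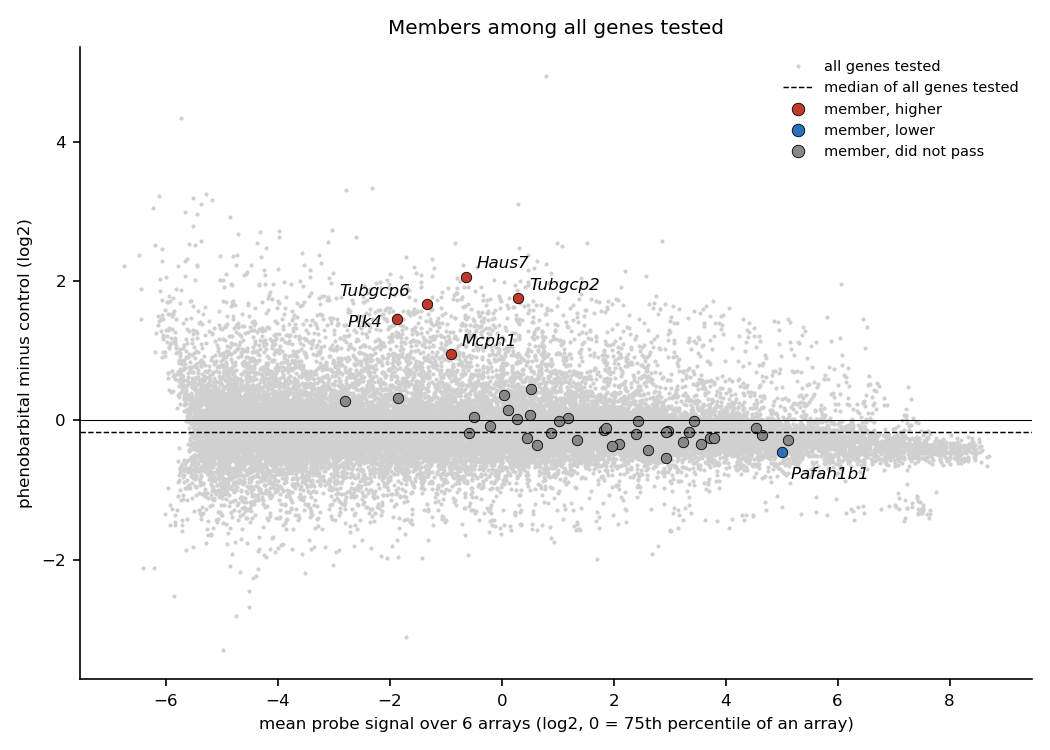
Mean probe signal over the 6 arrays (log2, x axis) against the difference between groups (log2, y axis) for all 25304 names tested (grey) and the 41 members (coloured by call). The dashed line is the median of all names, -0.16. Most members lie along that line, and those that rose lie between -1.87 and 0.30 on the x axis.

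Members differed in signal as well as in response. Of the 9 members whose probe had a mean signal below 0, 4 rose (Haus7, Tubgcp6, Plk4 and Mcph1), and of the 32 at or above 0, Tubgcp2 rose and Pafah1b1 fell. Over all names, 7.44% were called higher below 0 and 4.76% at or above it. The shares called lower were 8.15% and 13.4%, and the median differences -0.11 and -0.21, in the same order. The mean signal includes the phenobarbital arrays, so a rise itself lifts it. Every member that rose had a control mean below 0: Tubgcp2 -0.58, Mcph1 -1.38, Haus7 -1.67, Tubgcp6 -2.18 and Plk4 -2.60. Sass6, Cntrob, Tubg2, Tubgcp4, Tubgcp5 and Haus2 also had control means below 0 and did not pass. Array signals depend on the probe as well as on the transcript, so they give no order of expression among the genes.

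Of the 41 members, 32 had a promoter window in the RefSeq table (build GRCm38.p6, 250 bases before to 50 after the start). Of the 5 members that rose, Haus7, Plk4 and Tubgcp6 were among these 32, and their windows are shown; Tubgcp2 and Mcph1 were not. Capitals mark the CCAAT box, bound by NF-Y, and the cell cycle homology region (CHR), which recruits the DREAM and B-Myb complexes to genes of late cell cycle phases. Matches were sought on both strands.
Haus7 (chrX:73458980-73459279, minus strand): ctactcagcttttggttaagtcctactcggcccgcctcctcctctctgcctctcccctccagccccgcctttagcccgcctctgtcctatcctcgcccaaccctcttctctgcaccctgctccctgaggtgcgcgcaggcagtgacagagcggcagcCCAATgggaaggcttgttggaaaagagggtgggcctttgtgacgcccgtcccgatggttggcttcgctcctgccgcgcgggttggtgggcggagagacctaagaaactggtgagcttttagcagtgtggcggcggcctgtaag
Plk4 (chr3:40799701-40800000, plus strand): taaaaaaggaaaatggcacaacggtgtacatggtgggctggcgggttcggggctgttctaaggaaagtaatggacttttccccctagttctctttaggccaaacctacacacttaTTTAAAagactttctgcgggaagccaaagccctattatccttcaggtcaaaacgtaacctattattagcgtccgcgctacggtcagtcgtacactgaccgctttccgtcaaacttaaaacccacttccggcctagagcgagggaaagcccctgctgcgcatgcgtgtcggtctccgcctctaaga
Tubgcp6 (chr15:89123101-89123400, minus strand): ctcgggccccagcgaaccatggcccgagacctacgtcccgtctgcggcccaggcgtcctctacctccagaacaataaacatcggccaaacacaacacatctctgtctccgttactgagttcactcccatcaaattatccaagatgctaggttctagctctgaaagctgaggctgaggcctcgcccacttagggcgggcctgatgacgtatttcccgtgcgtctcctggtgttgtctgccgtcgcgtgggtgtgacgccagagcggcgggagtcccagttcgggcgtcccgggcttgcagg

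The letters searched for the NF-Y box were CCAAT. A CHR was counted where the window held TTTGAA, and likewise where it held the variant spelled TTTAAA. An E2F site was sought as TTTNNCGC. Haus7 held 1 CCAAT box, Plk4 held 1 CHR match, Tubgcp6 held neither, and none of these windows held the E2F letters. The CCAAT box was in 18 of 39 member windows (some genes have several) and in 37.4% of all 32851 windows. The CHR letters were in 11 of 39 and in 27.6%, and the E2F letters in 5 of 39 and in 5.17%.

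Most genes of 5 neighbouring lists did not pass either. Their counts stand beside the 6.24% of all names called higher and the 10.5% called lower. Of 44 other centriole and centrosome genes tested, 4 rose and 2 fell, with Ssna1 at 1.06 ± 0.11, Cep78 at 1.05 ± 0.12, Cep44 at 0.82 ± 0.17 and Cep97 at -0.47 ± 0.10. Of 20 other microcephaly genes, 3 rose and 1 fell: Wdfy3 had 1.59 ± 0.16, Sephs1 0.62 ± 0.10, Cdk6 0.60 ± 0.12 and Copb2 -0.42 ± 0.09. Of 21 genes of dynein, its partner dynactin and their adaptors, 3 rose and 3 fell. Among them the dynactin genes Dctn2 and Actr1b rose by 1.30 ± 0.12 and 1.60 ± 0.18, Nudc, which acts with Pafah1b1, rose by 0.65 ± 0.11, and the scaffold gene Disc1 fell by 0.46 ± 0.09. Of 29 genes of the spindle pole and mitosis, Dlgap5, Bub1b and Top2a rose, by 1.74 ± 0.16, 1.41 ± 0.13 and 0.76 ± 0.16, and none fell. Of 25 replication genes, Rfc3, Gins2 and Cdc45 rose, by 1.80 ± 0.12, 1.64 ± 0.32 and 1.36 ± 0.12, and Mcm3 fell by 0.46 ± 0.12. The list medians were -0.072, 0.031, -0.23, -0.048 and -0.13, in this order, beside -0.16 for all names.

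Markers of cell types were read on the same arrays. All 12 markers of cortical progenitors were above background, with Emx2 higher and Vim lower, and their summed signal, in percent of the 75th percentile, was 43781 to 49163 in controls and 34209 to 39814 with phenobarbital. Of 6 tested markers of multiciliated cells, which make many centrioles with Plk4 and Deup1, 4 rose and 1 fell. Gmnc rose by 1.29 ± 0.23, Foxj1 by 1.21 ± 0.24, Ccno by 1.14 ± 0.21 and Deup1 by 0.50 ± 0.11, while Mcidas fell by 0.73 ± 0.19 and Myb had 0.15 ± 0.14. None of these was below background in either group. Their summed signal was 3726 to 5578 in controls and 2788 to 3366 with phenobarbital, a sum to which the Mcidas probe gives most. Of 7 tested markers of the choroid plexus, an epithelium with multiciliated cells, 5 rose (Ttr, Otx2, Folr1, Clic6 and Kcne2), and the summed signal was 294 to 533 in controls and 1242 to 2408 with phenobarbital. In controls the Kcne2 probe was nowhere well above background. Of 8 neuronal markers 5 fell, and their summed signal was 23677 to 26038 against 14892 to 17892. Of 3 intermediate progenitor markers 1 fell, with sums of 4688 to 5475 against 3041 to 3478. Markers of cells outside the neural lineage fell too. Of 8 each, 5 fell for erythroid cells (105960 to 172861 against 69787 to 78701), 6 for mural cells and meninges (5488 to 5960 against 3093 to 3738) and 3 for endothelium (8295 to 8836 against 5004 to 5921). Of 7 markers of microglia and macrophages 3 fell and 1 rose, and the sums overlapped (776 to 1000 against 824 to 1070). The part of these cell types in the rise of Plk4 and the others was not tested, and more cells of a type cannot be told apart from more RNA per cell.

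Slide and group overlap only on slide 1. When slide was added as a block, leaving control replicate 1 as the only control to compare, the differences were 2.10 for Haus7, 1.76 for Tubgcp2, 1.52 for Tubgcp6 and 1.38 for Plk4 (limma, adjusted p = 0.0258, 0.0258, 0.0347 and 0.0325). The spread in that fit comes from the phenobarbital arrays alone, since the other slides hold 1 control each, so the lone control is assumed to vary as they do and these p-values add little. Mcph1 had 0.75 and Pafah1b1 -0.39, and neither passed (limma, adjusted p = 0.115 and 0.244). All 5 rises stayed past the threshold when any 1 array was left out. Their direction was fixed in these fits, because the groups did not overlap.

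**Figure D4:**
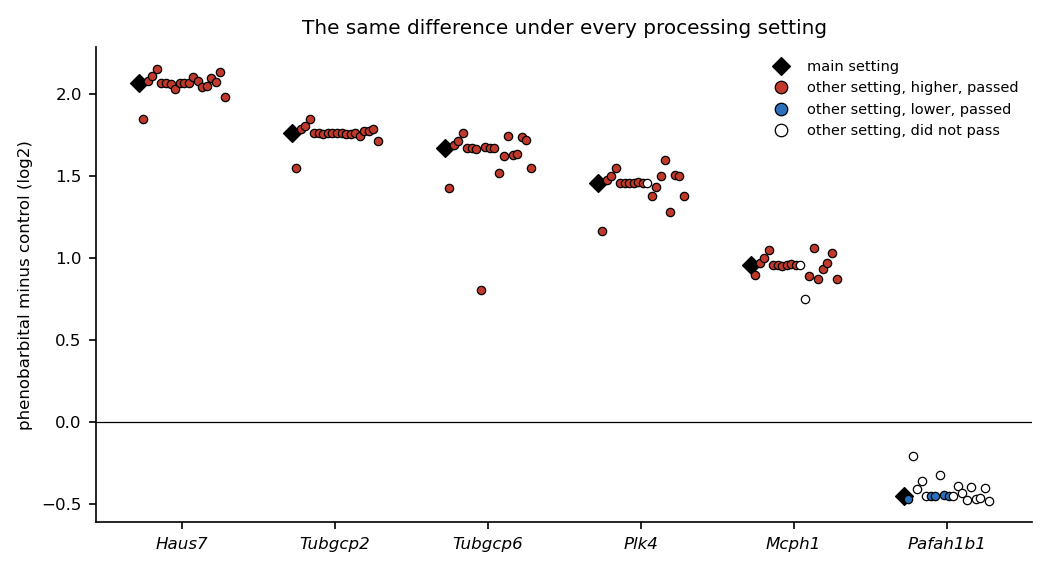
Difference between groups (log2, y axis) for the 6 genes that passed, in the main setting (diamond) and in each of 19 other settings (circles, filled where the call held). Haus7 and Tubgcp2 passed in every setting, as did Tubgcp6, whose lone low circle at 0.81 is the mean of its probes. Pafah1b1 passed in 5 of the 19.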

How the data were processed

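The 6 deposited scanner files hold intensity on a linear scale, which the authors obtained with Agilent Feature Extraction 10.7.3.1, per the file headers (10.7 in the submitters' processing notes). These values are background-subtracted and detrended within an array, without scaling between arrays, and the array annotation is mm9. The authors' deposited value table holds log2 values. Apart from a constant offset for each array, its differences between arrays matched those of the scanner values to within 1.77e-06 for 99% of values. Its column medians ran from -0.09 to 0.10. The constant each probe is centred on stays unknown.

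Signals were taken as log2 and reduced by each array's 75th percentile over non-control spots. Outlier spots (98 to 198 per array) were set to missing. A probe was kept if all arrays of either group had it well above background (34673 probes). The probe with the highest mean signal stood for a gene. Gene symbols came through RefSeq or Ensembl accessions (26582 of 55681 probes). Probes without a symbol kept their accession as a name, and the names tested include them. The table build is GRCm38.p6, which differs from that of the files, so coordinates are given only for the promoter windows, in GRCm38.p6. Groups were compared with limma 3.58.1 in R 4.3.3, two-sided, with Benjamini-Hochberg adjustment over all names or all probes, and the code was tested on simulated data. Members, lists and settings were chosen with earlier results of these data known. All 41 members are named, and lists give up to 4 genes by smallest p. Normexp was run on median spot signals. The number of arrays limits the precision.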

Additional observations from a re-analysis of the deposited data

How the results depend on the processing

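Haus7, Tubgcp2 and Tubgcp6 were called higher in all 19 other settings, Plk4 in 18 and Mcph1 in 17. Pafah1b1 stayed past the threshold in 5 settings: normexp, probes above background on all 6 arrays, outlier spots kept, the authors' value table, and limma with trend and robust. These 19 include the slide as a fixed block, which rests on 1 control. Other members passed in some settings. With normexp they were Cntrob at 0.44, Pcnt at -0.58 and Haus3 at -0.37 (limma, adjusted p = 0.0279, 0.0329 and 0.0494), with trend and robust Pcnt, Haus3 and Tacc3 (0.0300, 0.0383 and 0.0374), and with probes above background on all 6 arrays Pcnt (0.0483). The number of member genes called was 6 (5 higher, 1 lower), and 5 without any single replicate. It was 9 with normexp (6 higher, 3 lower) and 9 with trend and robust (5 higher, 4 lower). It fell to 3 with the replicate number as a block (Haus7, Tubgcp2 and Tubgcp6; limma, adjusted p = 0.0565 for Plk4 and 0.0626 for Mcph1), and the number of member probes called fell from 9 to 5. Whether same-numbered arrays were paired could not be decided. Deviations of same-numbered arrays from their group means had correlations of 0.08, -0.16 and -0.35, and other combinations ran from -0.23 to 0.33. With 3 arrays per group these deviations are tied to each other, so the correlations cannot decide it. Member probes called ran from 6 to 8 without single replicates. The median over members was -0.018 after quantile normalization and ran from -0.18 to -0.036 without single replicates.

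Some differences changed sign, and of these Nde1 passed, at 0.60 as the mean of its probes (limma, adjusted p = 0.0179). With that mean Cdk5rap2 had 0.068, Wdr62 0.067, Odf2 0.20 and Ndel1 0.0055. Quantile normalization gave Wdr62 0.091, Ninl 0.031, Tubg1 0.15 and Nde1 0.065. Scaling to the median gave Wdr62 0.029, Ninl 0.029 and Tubg1 0.032, and the percentile over probes above background gave Wdr62 0.077, Sass6 0.0046, Ninl 0.077 and Tubg1 0.080. Tubg1 had 0.13 with normexp. With the slide as a block Cep135, Cep192 and Nedd1 had -0.15, -0.073 and -0.055, and with the slide as a random block Cep135 had -0.033. Without single replicates Wdr62 ran from -0.10 to 0.038, Ninl from -0.098 to 0.032, Tubg1 from -0.055 to 0.075, Cep135 from -0.043 to 0.10, Cep192 from -0.019 to 0.096, Sass6 from -0.22 to 0.0024 and Tubgcp4 from -0.0025 to 0.12. Apart from the construction of each setting, the cause was not tested.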
